A study of Mus musculus with 12 samples.

Results

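The genes described here are 37 mouse genes of DNA crosslink and excision repair, chosen by symbol from the Fanconi pathway, homologous repair, nucleotide excision repair, translesion synthesis, direct reversal and the checkpoint kinases. All 37 were found among the 21004 genes of the deposited expression table. Messenger RNA had been sequenced from whole testis of 8-week-old mice of the outbred ICR strain, in 12 libraries that form 4 labelled groups of 3. The control group carries no agent on its label and the busulfan group carries busulfan alone. L.J. at 10 mg/kg was given in the other two groups, alone in the L.J. group and together with busulfan in the group called busulfan plus L.J. Busulfan is a drug with a pair of alkylating groups that can join both strands of DNA, and it is toxic to dividing germ cells. The series text says that the testis damage came from busulfan and speaks of FMT, which it does not explain, and L.J. is not explained either. No source used here gives the dose or route of busulfan or when the testes were sampled after treatment. Whether the 3 libraries of a group come from separate animals is not stated. Each p-value sets a change against a spread between libraries, estimated over all 4 groups, and that spread may be technical.

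A crosslink between the strands of DNA stops replication and transcription. In the Fanconi pathway, a core complex with an ubiquitin ligase marks the pair Fancd2 and Fanci, nucleases then cut the lesion free from one strand, translesion polymerases copy past it, and homologous repair rebuilds the break. Nucleotide excision repair removes adducts and what remains of the crosslink, Mgmt takes alkyl groups directly off guanine, and the kinases Atm and Atr signal the damage. In the testis, homologous repair also mends the programmed breaks of meiosis, Atr acts on the unpaired sex chromosomes of spermatocytes, and mice without Fanconi genes have few germ cells.

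The promoters of 6 of these genes are shown, picked by the calls of the genes in the results below. Fance, Ercc2, Ube2t and Atr were lower in busulfan than in control both as deposited and after quantile normalization, while Ercc5 and Brca1 did not pass as deposited and were higher after it. RefSeq windows on build GRCm38.p6, from 250 bases before to 50 bases after the annotated start, were matched for 31 of the 37 genes, in 33 windows of 300 bases. None was matched for Rad51d or Rev3l, which were also higher after quantile normalization. Capitals mark letters searched on both strands, which were CCAAT of NF-Y, GGGCGG of Sp1, GCGGGAA of E2F, GCATGCGC of NRF1 and TGACGTCA of the cyclic AMP response element. Each sequence is written 5′ to 3′ on the strand of its gene. The regions are chr17:28313280-28313579 (plus strand) for Fance, chr7:19381767-19382066 (plus strand) for Ercc2 and chr1:134962315-134962614 (plus strand) for Ube2t. They are chr9:95857347-95857646 (plus strand) for Atr, chr1:44147494-44147793 (plus strand) for Ercc5 and chr11:101551906-101552205 (minus strand) for Brca1.
Fance: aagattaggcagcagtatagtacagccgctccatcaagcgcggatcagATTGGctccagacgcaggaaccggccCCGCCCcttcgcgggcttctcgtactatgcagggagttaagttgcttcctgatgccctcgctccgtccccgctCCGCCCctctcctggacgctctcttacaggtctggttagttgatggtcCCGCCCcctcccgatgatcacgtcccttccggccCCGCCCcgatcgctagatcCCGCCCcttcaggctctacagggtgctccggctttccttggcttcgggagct
Ercc2: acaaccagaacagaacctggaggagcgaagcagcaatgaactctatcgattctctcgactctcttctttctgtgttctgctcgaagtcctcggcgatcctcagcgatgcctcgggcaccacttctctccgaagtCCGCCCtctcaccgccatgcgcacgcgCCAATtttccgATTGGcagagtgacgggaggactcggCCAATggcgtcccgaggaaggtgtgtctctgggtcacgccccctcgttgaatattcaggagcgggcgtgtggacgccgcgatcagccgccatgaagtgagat
Ube2t: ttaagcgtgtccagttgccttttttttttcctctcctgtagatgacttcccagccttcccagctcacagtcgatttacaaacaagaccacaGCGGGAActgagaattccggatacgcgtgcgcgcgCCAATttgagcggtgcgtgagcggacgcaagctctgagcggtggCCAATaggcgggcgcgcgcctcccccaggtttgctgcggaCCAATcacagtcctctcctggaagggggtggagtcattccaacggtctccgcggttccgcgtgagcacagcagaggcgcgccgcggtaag
Atr: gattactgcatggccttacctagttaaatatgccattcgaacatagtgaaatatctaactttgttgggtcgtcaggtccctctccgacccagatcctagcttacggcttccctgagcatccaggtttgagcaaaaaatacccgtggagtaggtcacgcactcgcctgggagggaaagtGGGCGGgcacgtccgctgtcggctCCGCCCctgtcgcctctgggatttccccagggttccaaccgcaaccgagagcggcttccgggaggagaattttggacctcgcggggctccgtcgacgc
Ercc5: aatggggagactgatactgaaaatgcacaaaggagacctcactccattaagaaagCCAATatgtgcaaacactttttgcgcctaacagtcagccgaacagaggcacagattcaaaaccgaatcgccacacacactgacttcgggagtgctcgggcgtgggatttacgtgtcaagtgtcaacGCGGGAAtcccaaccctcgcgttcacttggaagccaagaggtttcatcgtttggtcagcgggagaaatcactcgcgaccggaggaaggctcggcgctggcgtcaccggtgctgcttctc
Brca1: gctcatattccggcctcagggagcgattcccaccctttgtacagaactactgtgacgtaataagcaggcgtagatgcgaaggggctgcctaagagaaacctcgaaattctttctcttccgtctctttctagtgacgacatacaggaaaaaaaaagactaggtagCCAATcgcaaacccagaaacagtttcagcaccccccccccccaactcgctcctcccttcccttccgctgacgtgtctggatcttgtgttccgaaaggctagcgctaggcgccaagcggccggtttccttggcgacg

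The E2F letters were present in 27.3% of the 33 windows and in 4.6% of all 32851 promoter windows of the same length. The NRF1 letters were present in 18.2% against 2.7%, the Sp1 letters in 57.6% against 35.7%, and the NF-Y letters in 51.5% against 37.4%. The cyclic AMP response element was found in 6.1% of the windows and in 1.8% of all windows. The median content of G and C was 58.0% in the windows of the repair genes and 52.7% in all windows, and Sp1 and E2F letters are rich in G and C and can overlap. Calls in busulfan against control were set beside each motif as a description, with no test and with 51.4% of all genes lower. With the E2F letters 6 of 8 tested genes were lower and without them 11 of 21, and for Sp1 these counts were 11 of 16 and 6 of 13. For NF-Y they were 8 of 15 and 9 of 14, for NRF1 4 of 6 and 13 of 23, and for the cyclic AMP response element 2 of 2 and 15 of 27. A match is a run of letters and not a binding site.

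Before the results, 1 fact about the libraries bears on all of them. Transcripts of spermatids were highest in the 6 libraries of both busulfan groups, although busulfan is toxic to dividing germ cells. Directions below are those of the labels. Whether any labels were exchanged cannot be told from the files, the time of sampling after busulfan is not given, and the part of either was not tested. The mean log2(FPKM + 1) of 14 markers of elongating spermatids was 10.66 to 10.95 in those 6 libraries, against 7.08 to 8.99 in control and 7.95 to 10.04 in L.J. Their summed level was 41294 to 61213 FPKM in those 6 libraries and 3042 to 11790 FPKM in control, out of a sum over all genes of 417242 to 535515 FPKM per library. All 14 were higher in busulfan than in control by limma at an adjusted p of 0.05, as were 11 of 13 markers of round spermatids. In the same comparison 20 of 21 Sertoli cell markers, all 9 Leydig cell markers and all 9 macrophage markers fell, while of 16 meiotic markers 8 fell and 1 rose, and of 12 tested spermatogonial markers 8 fell. None of the markers of these lists was at 0 in any library, so transcripts that define germ, Sertoli and Leydig cells were present throughout. The mean of the Sertoli markers was 3.63 to 3.86 in both busulfan groups, 4.68 to 5.48 in control and 4.35 to 6.32 in L.J., where replicate 3 was the highest of all 12 libraries. In whole tissue, fewer cells of a type and less RNA per cell cannot be told apart, and FPKM are shares of a library, so a rise in one class of transcripts lowers the values of the rest.

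FPKM are fragments scaled to the length of a transcript and to the mapped fragments of its library, so levels can be set side by side between genes. In control testis the repair genes spanned a wide range of levels. Atr led with 65.7 ± 3.72 FPKM (SD, n = 3), followed by Ube2t with 46.7 ± 1.30, Slx4 with 42.2 ± 1.76, Fancg with 27.9 ± 2.48 and Ercc3 with 20.4 ± 1.52. The other 32 genes lay lower, and 18 of the 37 had a control mean under 5 FPKM. The rarest were Fancb, a core subunit encoded on the X chromosome, at 0.273 ± 0.215 FPKM, Fancf, another core subunit, at 0.903 ± 0.0929 FPKM, and Mgmt at 0.977 ± 0.465 FPKM. A gene was tested where 3 or more libraries had 1 FPKM or more of it, which held for 35 of the 37. Fancb reached 1 FPKM in 0 libraries, with a highest value of 0.56 FPKM in L.J. replicate 3. Fancf reached it in 1, with 1.01 FPKM in control replicate 2. Fancf was 0.84, 1.01 and 0.86 FPKM in control and 0.36, 0.42 and 0.20 FPKM in busulfan, groups that did not overlap, but it was not tested. Fan1, which was tested, reached 1 FPKM only in control and L.J. libraries and so had to differ to enter, and its calls below support nothing.

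**Figure D1:**
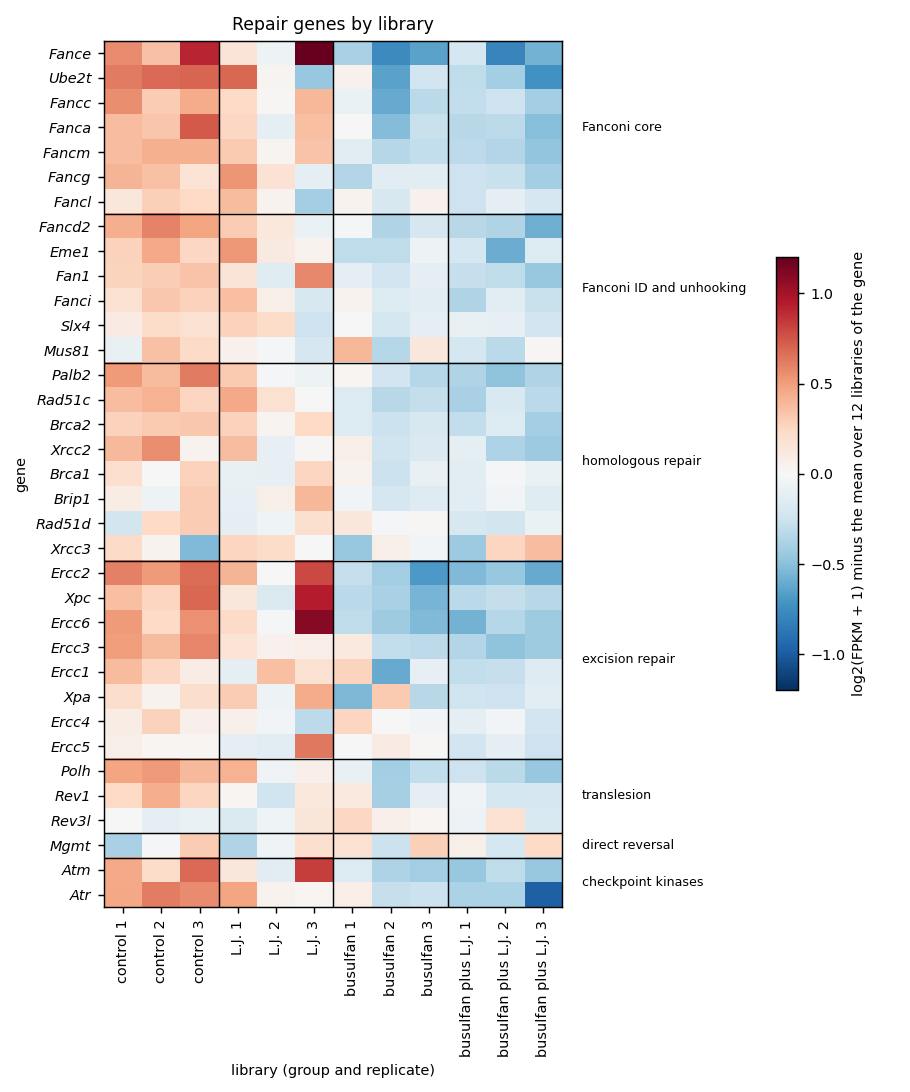
Heat map of log2(FPKM + 1) of the 35 tested repair genes in each of the 12 libraries, as the difference from the mean of that gene over all libraries; rows are grouped by role and columns by labelled group. Most rows are red in the 3 control libraries and blue in the 6 libraries of both busulfan groups, and L.J. replicate 3 holds the highest value of Fance, Xpc, Ercc6 and Ercc5.

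The first comparison sets the libraries labelled busulfan against those labelled control. Of the 35 tested genes, 20 fell and 0 rose, by a limma fit over all 14675 genes tested with a Benjamini-Hochberg adjusted p under 0.05. That share, 57.1%, stood beside 51.4% of all genes tested that were lower and 12.4% that were higher, so it was near the background. Without Fan1, which had to be higher in control or L.J. to be tested, 19 of 34 fell, or 55.9%. The median log2 change of the repair genes was -0.51 and that of all genes tested was -0.51, and 17 of the 35 lay above the latter and 18 below it. The groups did not overlap downward for 23 genes, or 65.7%, against 60.7% of all genes, and upward for 1 gene, Rev3l, against 16.1% of all genes. Fan1 is among those 23 and supports nothing there either. The decline as deposited was thus of the size shown by a typical transcript of these libraries, and what set the genes apart from each other was their order around that median.

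The Fanconi core is the complex that starts the pathway. Its genes were grouped with Ube2t, an enzyme that works with its ligase. Of the 7 tested genes of this group 6 fell, beside 51.4% of all genes lower. Their median log2 change was -0.74, or -0.23 relative to the median of all genes. Fance, the core subunit that contacts Fancd2 (chromosome 17, 28313530 to 28326574, GRCm38), was 3.79, 3.13 and 5.11 FPKM in control replicates 1 to 3 and 1.47, 0.91 and 1.08 FPKM in busulfan replicates 1 to 3. It was 1.79, 0.87 and 1.19 FPKM in busulfan plus L.J. and 2.61, 2.10 and 7.69 FPKM in L.J. Every library of both busulfan groups lay below every control and L.J. library, while the L.J. group spread past control on both sides. Fance fell by 1.21 on the log2 scale in busulfan (SE 0.34, limma adjusted p = 0.0113), the largest decrease among the 35 genes in this comparison.

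Ube2t, the enzyme that passes ubiquitin to Fancd2 through the ligase Fancl (chromosome 1, 134962565 to 134974180), was 45.2, 47.1 and 47.7 FPKM in control and 30.0, 18.2 and 24.6 FPKM in busulfan. It was 23.3, 21.7 and 17.1 FPKM in busulfan plus L.J. and 47.3, 29.7 and 20.9 FPKM in L.J. The control libraries were tight, and the L.J. libraries ran from the control level down to that of busulfan. The log2 change in busulfan was -0.94 (SE 0.26, limma adjusted p = 0.011). Fancc, Fanca, Fancm, the translocase that brings the core to DNA, and Fancg fell by 0.77, 0.74, 0.67 and 0.51 on the log2 scale, with limma adjusted p-values of 0.00563, 0.00887, 0.00492 and 0.0192. The call of Fancg was lost without busulfan replicate 1 (limma adjusted p = 0.061) or control replicate 1 (limma adjusted p = 0.0654). Fancl, the ligase itself, changed by -0.25 (limma adjusted p = 0.247), although its control libraries, 8.85 to 9.95 FPKM, and its busulfan libraries, 6.86 to 8.29 FPKM, did not overlap. Exons of Fancc, Fanca and Fancl share 16.4%, 10.5% and 13.7% of their bases with genes on the opposite strand in GENCODE M21, and whether strand was used in counting is not stated, so those levels are uncertain.

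Among the Fancd2 and Fanci pair and the nucleases that unhook a crosslink, 3 of 6 tested genes fell, or 2 of 5 without Fan1, at or below the share of all genes (51.4%). Fancd2 was 9.35, 10.6 and 9.65 FPKM in control, 6.60, 4.95 and 5.65 FPKM in busulfan, 5.09, 4.96 and 4.10 FPKM in busulfan plus L.J. and 8.42, 7.33 and 6.23 FPKM in L.J. The 3 groups with an agent all lay below control without overlap. Its change in busulfan was -0.69 (SE 0.16, limma adjusted p = 0.00573). Its partner Fanci went from 5.10 ± 0.30 FPKM (SD, n = 3) in control to 3.82 ± 0.37 FPKM in busulfan, a log2 change of -0.34 that did not pass (limma adjusted p = 0.0877), with 16% of its exon bases shared with Polg. Without L.J. replicate 3 the limma adjusted p of Fanci was 0.0292.

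Eme1, which with Mus81 forms a structure-cutting nuclease, fell by 0.55 (limma adjusted p = 0.0227), a call that was lost without busulfan replicate 1, busulfan replicate 2 or control replicate 2 (limma adjusted p from 0.0596 to 0.0699). Mus81 itself was 5.22, 7.46 and 6.75 FPKM in control and 7.69, 4.23 and 6.25 FPKM in busulfan, and the groups overlapped (log2 change -0.10, limma adjusted p = 0.672). Members of this pair therefore gave different calls, but the difference between them was not tested. Fan1, a nuclease recruited by marked Fancd2, was 1.03, 1.07 and 1.14 FPKM in control and 0.56, 0.44 and 0.55 FPKM in busulfan, and its change was -0.46 (limma adjusted p = 0.0389), a value that the filter on low levels favoured. That call was lost on leaving out any 1 of the control or busulfan libraries, or busulfan plus L.J. replicate 1 or 2 (limma adjusted p from 0.0514 to 0.102). Slx4, the scaffold of the unhooking nucleases, was one of the most abundant repair genes and changed by -0.27 (limma adjusted p = 0.124), with 40.3 to 43.8 FPKM in control and 32.2 to 37.6 FPKM in busulfan. Its limma adjusted p was 0.0258 without L.J. replicate 3.

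In homologous repair, 3 of 8 tested genes fell, a smaller share than the 51.4% of all genes. Palb2, which joins Brca1 to Brca2, was 4.68, 4.21 and 5.15 FPKM in control, 3.07, 2.41 and 2.16 FPKM in busulfan, 2.10, 1.86 and 2.10 FPKM in busulfan plus L.J. and 3.98, 2.92 and 2.84 FPKM in L.J. All 9 libraries with an agent were below all 3 control libraries. Its change in busulfan was -0.68 (SE 0.16, limma adjusted p = 0.00668). Brca2, a mediator of homologous repair, fell by 0.51 (limma adjusted p = 0.0088), from 9.18 ± 0.18 to 6.15 ± 0.24 FPKM (SD, n = 3 each). Rad51c, which acts in the same route, fell by 0.61 (limma adjusted p = 0.00668), from 13.6 ± 0.80 to 8.57 ± 0.58 FPKM.

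The other genes of homologous repair gave smaller values. Xrcc2 changed by -0.44 (limma adjusted p = 0.0614), and its limma adjusted p was 0.0439 without control replicate 3, 0.0426 without L.J. replicate 3 and 0.0421 with the replicate number as a block. Rad51d changed by -0.06 and Xrcc3 by -0.05, with limma adjusted p-values of 0.774 and 0.868. Brca1, a ligase with several roles in end processing and in the sex body of spermatocytes, changed by -0.26 (limma adjusted p = 0.166), and Brip1, a helicase bound to Brca1, by -0.24 (limma adjusted p = 0.221). The control and busulfan libraries of these 5 genes overlapped.

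Nucleotide excision repair split evenly, with 4 of 8 genes lower, close to the 51.4% of all genes. The 4 that fell were Ercc2 and Ercc3, the helicases of the repair and transcription factor TFIIH, Xpc, which recognises lesions across the genome, and Ercc6, which acts where RNA polymerase has stalled. The 4 that did not pass were Xpa, which checks the lesion, the nuclease pair Ercc1 and Ercc4, and Ercc5, the nuclease that cuts on the other side. Ercc2 (chromosome 7, 19382017 to 19395694) was 13.0, 12.2 and 13.7 FPKM in control, 6.61, 5.94 and 4.74 FPKM in busulfan, 5.41, 5.73 and 5.06 FPKM in busulfan plus L.J. and 11.2, 8.21 and 14.97 FPKM in L.J. Its busulfan mean was 0.445 times the control mean, and both busulfan groups lay below the other libraries without overlap. The log2 change in busulfan was -1.05 (SE 0.19, limma adjusted p = 0.00386), the smallest p of the 35 genes in this comparison. Exons of Ercc2 share 24.6% of their bases with the antisense gene Gm26852 and 17.8% with Klc3, so its level is uncertain.

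Ercc3 fell by 0.65 (limma adjusted p = 0.00526), from 20.5, 18.8 and 21.8 FPKM in control to 15.5, 11.4 and 11.3 FPKM in busulfan. Xpc and Ercc6 each fell by 0.86, with limma adjusted p-values of 0.0129 and 0.0127, and the call of Xpc was lost without control replicate 3 (limma adjusted p = 0.055). Both genes were highest in L.J. replicate 3, the library with the highest Sertoli markers, with 6.11 FPKM of Xpc and 12.3 FPKM of Ercc6. What part the mix of cells has in these changes was not tested. Ercc1 was 14.6, 13.2 and 11.7 FPKM in control and 13.4, 6.85 and 10.1 FPKM in busulfan, with a log2 change of -0.39 (limma adjusted p = 0.123). Its value depended on busulfan replicate 1, without which the limma adjusted p was 0.0289. Xpa changed by -0.34 (limma adjusted p = 0.178), and busulfan replicate 2, at 13.4 FPKM, stood above its replicates at 6.96 and 8.21 FPKM. Without that library the limma adjusted p of Xpa was 0.0289. Ercc4 changed by -0.07 (limma adjusted p = 0.7). Ercc5 was 4.74, 4.55 and 4.55 FPKM in control and 4.47, 4.84 and 4.53 FPKM in busulfan, so both means were 4.61 FPKM (limma adjusted p = 0.999). With an SE of 0.19 around that difference, Ercc5 lay 0.51 above the median change of all genes. That SE rests on the spread of all 4 groups. The SD of Ercc5 was 0.11 FPKM in control and 0.20 FPKM in busulfan but 1.98 FPKM in L.J., which is not part of this comparison.

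**Figure D2:**
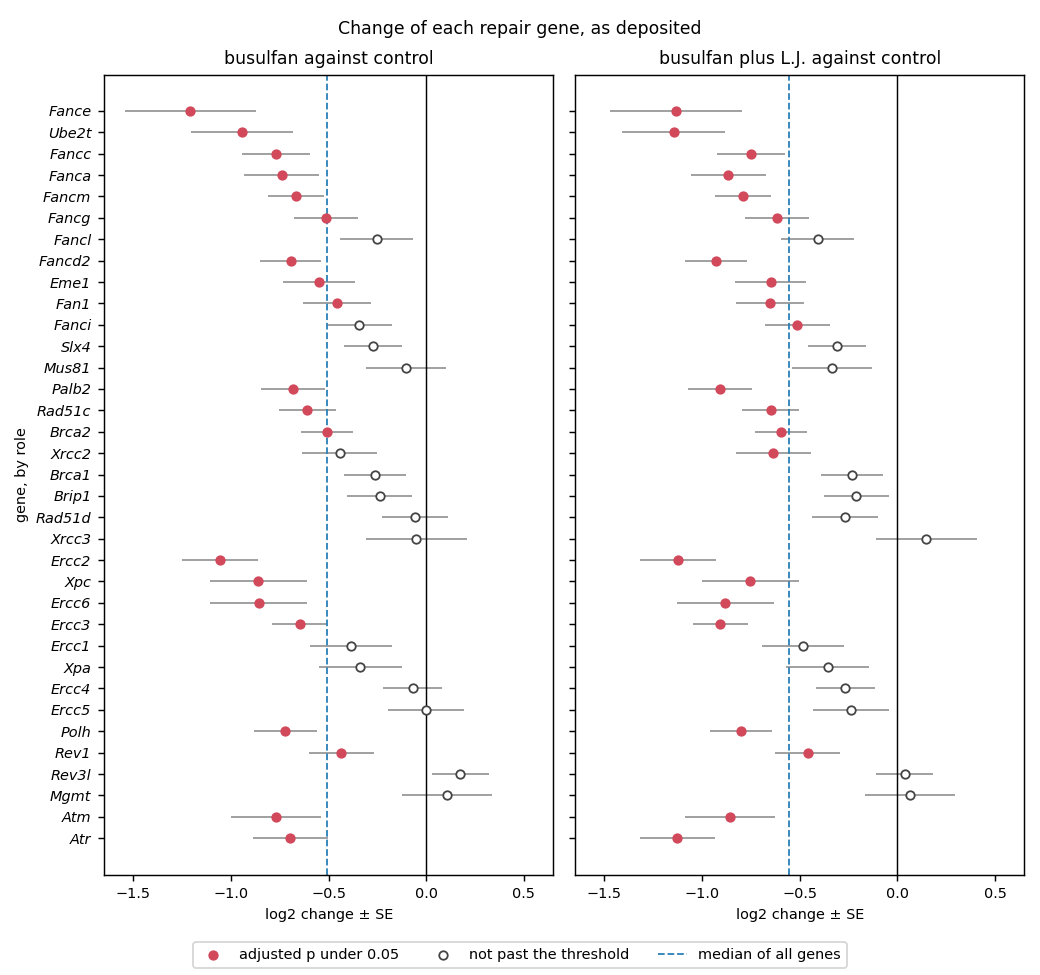
Log2 change ± SE of each tested repair gene in busulfan (left) and busulfan plus L.J. (right) against the same 3 control libraries, ordered by role and then by size; filled points passed an adjusted p of 0.05 and the dashed line is the median of all genes tested, -0.51 and -0.55. Filled points lie on both sides of the dashed line, and no filled point lies above 0.

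The translesion polymerases differed in their calls, with 2 of 3 lower, beside 51.4% of all genes. Polh, which copies past bulky and pyrimidine lesions, fell by 0.72 (limma adjusted p = 0.00546), from 8.17 ± 0.40 to 4.58 ± 0.64 FPKM (SD, n = 3 each). Rev1, the scaffold of this group of polymerases, fell by 0.44 (limma adjusted p = 0.0381), but that call was lost without any 1 of the 3 control or 3 busulfan plus L.J. libraries, or busulfan replicate 2 or 3 (limma adjusted p from 0.0525 to 0.15). Exons of Rev1 share 26.6% of their bases with Eif5b on the opposite strand. Rev3l, the catalytic subunit of polymerase zeta, was 12.5, 11.4 and 11.6 FPKM in control, 14.96, 13.0 and 12.6 FPKM in busulfan, 11.7, 14.2 and 10.8 FPKM in busulfan plus L.J. and 10.9, 11.9 and 13.8 FPKM in L.J. It was the only one of the 35 genes whose busulfan libraries all lay above control, and its change of 0.17 did not pass (SE 0.15, limma adjusted p = 0.306). Rev3l also varied least of the 35 across all 12 libraries, with an SD of 0.140 on the log2 scale against a median of 0.317 for the repair genes and 0.423 for all genes. Mgmt was 0.52, 0.96 and 1.45 FPKM in control and 1.26, 0.66 and 1.42 FPKM in busulfan. These groups overlapped fully and the change was 0.10 (SE 0.23, limma adjusted p = 0.699).

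Both checkpoint kinases fell, beside 51.4% of all genes lower. Atr, which responds to stalled forks and unpaired chromosome axes (chromosome 9, 95857597 to 95953217), was 61.7, 69.0 and 66.6 FPKM in control, 47.3, 36.7 and 37.2 FPKM in busulfan, 34.2, 34.0 and 22.1 FPKM in busulfan plus L.J. and 62.1, 46.1 and 45.3 FPKM in L.J. The group means stepped down from control through L.J. and busulfan to busulfan plus L.J., with an overlap between control and L.J. and between L.J. and busulfan. In busulfan the change was -0.70 (SE 0.19, limma adjusted p = 0.0108). Atm, which responds to breaks, was 3.17, 2.55 and 3.90 FPKM in control and 1.72, 1.36 and 1.28 FPKM in busulfan, and fell by 0.77 (SE 0.23, limma adjusted p = 0.0149). The call of Atm was lost without busulfan replicate 3 (limma adjusted p = 0.0507) or control replicate 3 (limma adjusted p = 0.0614).

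**Figure D3:**
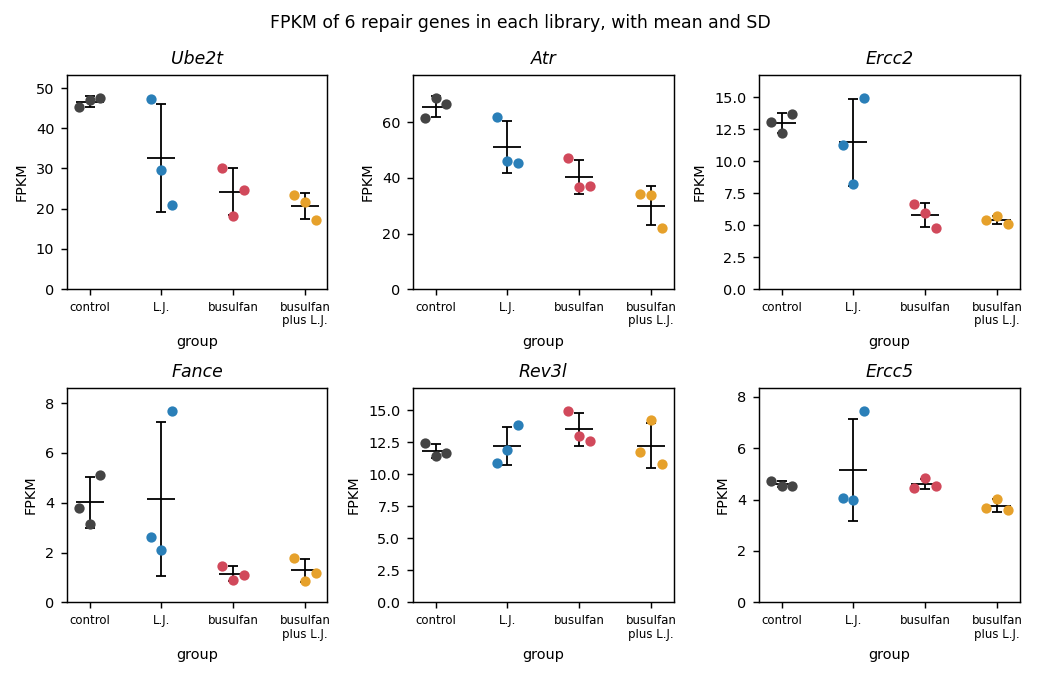
FPKM of Ube2t, Atr, Ercc2, Fance, Rev3l and Ercc5 in each library; points are libraries, bars are the mean and SD of 3, and each axis starts at 0. Ercc2 and Fance lie lower in all 6 libraries of both busulfan groups than in the other 6, Ercc5 lies at 4.61 FPKM in control and busulfan alike, and L.J. replicate 3 stands above the other libraries for Fance and Ercc5.

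How the libraries were put on 1 scale decided how many repair genes moved and in which direction, so the values as deposited are relative. Under quantile normalization the median of all genes was -0.16, and 4 repair genes were lower (Fance, Ercc2, Ube2t and Atr) while 4 were higher (Brca1, Rad51d, Ercc5 and Rev3l), beside 18.8% and 16.7% of all genes. With libraries scaled to the median of all genes, Ercc2 and Fance were lower while Rad51d, Ercc5 and Rev3l were higher, beside 13.5% and 21.1% of all genes. Scaled to the meiotic markers, Ube2t was the only gene called, and it was lower, beside 1.18% of all genes lower and 16.4% higher. Scaled to the Sertoli markers, 8 repair genes were higher and 0 were lower, beside 29.4% and 0.463% of all genes, with a median of all genes of 0.72. Ercc2 and Fance were thus lower, by limma, in the deposited, quantile and median scalings, and Rev3l, Ercc5 and Rad51d were higher in the quantile and median scalings. Rev3l had a change of 0.65 (limma adjusted p = 0.00644) under quantile normalization and of 0.75 (limma adjusted p = 0.00319) under median scaling.

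**Figure D4:**
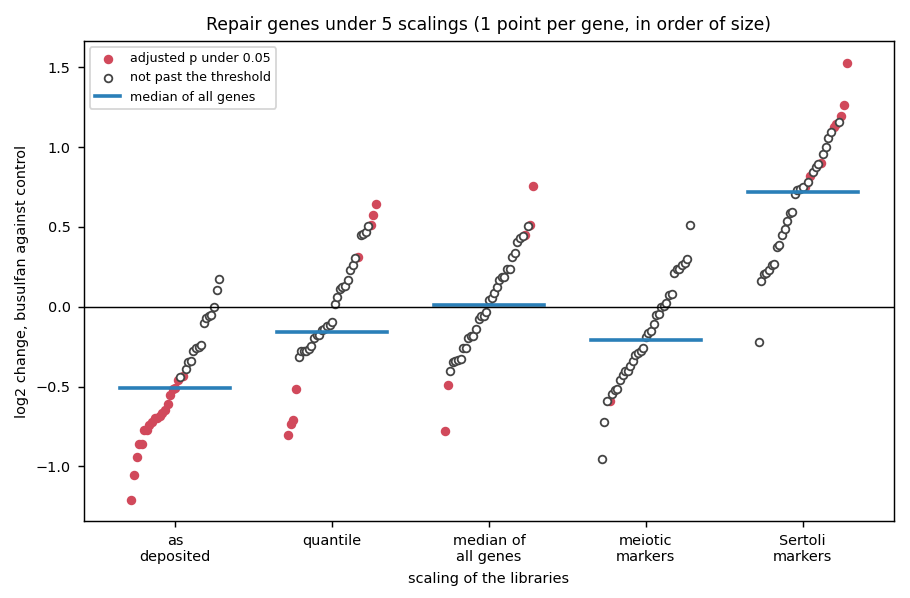
Log2 change of the 35 tested repair genes in busulfan against control under 5 scalings of the libraries; each point is a gene, filled where the adjusted p was under 0.05, and the bar is the median of all genes tested. The number of genes past the threshold goes from 20 lower as deposited to 8 higher when scaled to Sertoli markers, and the cloud follows the bar of all genes.

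The group of busulfan plus L.J. was compared with the same 3 control libraries, so its values are not independent of those above. Of the 35 genes, 22 fell and 0 rose, or 62.9%, beside 53.5% of all genes lower and 13% higher, and the median change was -0.64 against -0.55 for all genes. Without Fan1, whose entry to the test required a difference, 21 of 34 fell, or 61.8%. The libraries did not overlap downward for 29 genes, or 82.9%, and upward for 0, beside 63.4% and 17.2% of all genes. Fan1 is among those 29 and supports nothing there either. Ube2t fell by 1.15, and Fance, Atr and Ercc2 by 1.13 each, with limma adjusted p-values of 0.00444, 0.013, 0.00207 and 0.00208. Fancd2 fell by 0.93, and Palb2 and Ercc3 by 0.91. The genes that passed here and not in busulfan alone were Xrcc2 (-0.64, limma adjusted p = 0.0139) and Fanci (-0.51, limma adjusted p = 0.0187), and neither passed in the direct comparison of both busulfan groups.

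Single libraries decided some of these calls. That of Fance was lost without control replicate 3 (limma adjusted p = 0.0521), and that of Xrcc2 without control replicate 2 or busulfan plus L.J. replicate 3 (limma adjusted p = 0.0523 and 0.0515). Fanci was lost without control replicate 2 or 3 or busulfan plus L.J. replicate 1 or 3 (limma adjusted p from 0.0508 to 0.0674). Xpc was lost without control replicate 3 or busulfan plus L.J. replicate 1 or 3 (limma adjusted p from 0.0501 to 0.0798). Rev1 was lost without any 1 of the control libraries or busulfan plus L.J. replicate 2 or 3 (limma adjusted p from 0.0541 to 0.092). Ercc1 passed without busulfan replicate 1, busulfan replicate 2 or L.J. replicate 3, Fancl without L.J. replicate 1 or 3, and Slx4 without L.J. replicate 3. Quantile normalization gave 5 lower (Atr, Ercc2, Ercc3, Fan1 and Ube2t) and 4 higher (Brca1, Brip1, Ercc5 and Rev3l), beside 23% and 18% of all genes. Median scaling gave 3 lower (Ercc2, Fan1 and Fancm) and 2 higher (Brca1 and Rev3l), beside 17% and 23.5%. Fan1 is counted as lower under both of these scalings, but its entry to the test required a difference, so its calls support nothing. Meiotic scaling gave 4 lower (Atr, Fancd2, Palb2 and Ube2t) and 0 higher, beside 2.66% and 18.6%, and Sertoli scaling gave 0 lower and 7 higher, beside 0.859% and 26.6%.

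Whether L.J. alters the values seen under busulfan is addressed by setting the group of both agents against busulfan alone. No repair gene passed by limma, nor did any of the 14675 genes, so 0% of all genes were called in either direction. At an unadjusted p under 0.05 there was 1 repair gene, Atr, and 109 genes in all, or 0.743%, a share below that threshold itself. The fit takes the spread of all 4 groups as equal. The mean of the Sertoli markers ran from 3.63 to 3.86 in both busulfan groups but from 4.35 to 6.32 in L.J. A spread shared with a more variable group can make the p-values here too large, so the lack of calls does not show a lack of difference. Atr was lower in each busulfan plus L.J. library than in each busulfan library (log2 change -0.43, SE 0.19, limma adjusted p = 1). Of the 35 repair genes 29 were below 0, or 82.9%, beside 60.5% of all genes, and 24 lay below and 11 above the median change of all genes, a count without a test. Their median change was -0.10, against -0.04 for all genes. The libraries did not overlap downward for 7 genes, or 20%, beside 5.19% of all genes, and upward for 0, beside 3.39% of all genes.

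Those 7 genes were Atr, Ercc3, Ercc4, Ercc5, Palb2, Rad51d and Fan1, and their log2 changes ran from -0.43 for Atr to -0.19 for Fan1. After scaling to the median of all genes, an alternative added after the data were seen, 6 genes were lower without overlap (Atr, Ercc3, Fan1, Rad51d, Fancd2 and Fancm), beside 5.62% of all genes, and 0 were higher, beside 3.93%. Ercc5 illustrates the size of these differences, with 4.47, 4.84 and 4.53 FPKM in busulfan and 3.66, 4.04 and 3.60 FPKM in busulfan plus L.J., a log2 change of -0.24 (SE 0.19). Among the 4 genes with the largest decreases under busulfan, Fance changed by 0.07 (SE 0.34), Ercc2 by -0.07 (SE 0.19), Ube2t by -0.20 (SE 0.26) and Xpc by 0.11 (SE 0.25), each less than its SE. These SEs rest on the spread of all 4 groups. The SD of Fance was 0.29 FPKM in busulfan and 0.47 FPKM in busulfan plus L.J. but 3.09 FPKM in L.J. A p that misses the threshold does not show that the groups were equal.

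L.J. against control asks what L.J. does without busulfan. No repair gene and no other gene passed by limma, and 0% of all genes were called in either direction, with 0.843 as the smallest adjusted p. At an unadjusted p under 0.05 there were 4 repair genes of 35, or 11.4%, and 715 genes in all, or 4.87%. These were Ube2t, Palb2, Ercc3 and Fancd2, with log2 changes of -0.58, -0.43, -0.39 and -0.39 and SEs of 0.26, 0.16, 0.14 and 0.16. The libraries did not overlap downward for 6 genes (Palb2, Ercc3, Fancd2, Rev1, Fancm and Brca2), or 17.1%, beside 7.97% of all genes, and upward for 0, beside 1.1%. After scaling to the median of all genes, Palb2 and Ercc3 were lower without overlap, beside 3.46% of all genes, and Xpa was higher without overlap, beside 3.48%. Ercc3 was 16.1, 14.8 and 15.1 FPKM in L.J., all below the lowest control library at 18.8 FPKM.

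The L.J. libraries differed widely among themselves for many repair genes. Fance in L.J. replicate 3 was 3.66 times its level in L.J. replicate 2, Fan1 2.9 times, Xpc 2.68 times, Atm 2.49 times and Ercc6 2.4 times. In the other direction, Fancl was 0.7 times, Ube2t 0.701 times and Slx4 0.713 times the level in replicate 2. In total 21 of the 35 genes, or 60%, were higher in replicate 3, beside 61.6% of all genes. In L.J. replicate 3, 10 of the 35 genes (28.6%) lay above the control range and 18 (51.4%) below it, beside 39.4% and 36.7% of all genes. The genes that were high in that library included Ercc2 with 14.97 FPKM and Ercc5 with 7.46 FPKM, and the same library held the highest Sertoli and the lowest meiotic marker means of the 12. What part the mix of cells has in this was not tested.

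The interaction of busulfan and L.J., which asks whether L.J. moves genes differently with busulfan than without, gave 0 repair genes and 0% of all genes by limma. At an unadjusted p under 0.05 there were 0 repair genes and 182 genes in all, or 1.24%. Estimates ran from -0.33 for Ercc5 (SE 0.28) to 0.38 for Ube2t (SE 0.37), so differences of that size could not be resolved.

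Other genes of the same pathways were read in busulfan against control as deposited, and not under the other scalings. Of 13 further Fanconi genes 7 fell, led by the ubiquitin ligase Rfwd3 (-1.03), the Fancm partner Cenps (-0.88) and the nuclease subunit Slx1b (-0.77). Of 18 further genes of homologous repair 15 fell, including Rad50 of the end-binding complex (-0.69) and Sfr1 (-0.67). Of 20 further genes of excision repair 17 fell, led by the damage sensor Ddb2 (-1.09), the TFIIH subunit Gtf2h3 (-1.06) and Rpa3 of the single-strand binding complex (-1.05). Of 14 further checkpoint genes 11 fell, among them the Atr activator Topbp1 (-0.98), the histone H2afx (-0.95) and the ligase Rnf8 (-0.94). Rnf168, a ligase that acts after Rnf8, rose by 0.34 (limma adjusted p = 0.0315) and is named because it was the only one of that list to rise. Alkbh2, an enzyme that reverses alkylation of bases, fell by 0.80 (limma adjusted p = 0.0185), 1 of 2 further genes of direct reversal. The shares of these lists are to be read beside the 51.4% of all genes that fell. The median log2 changes of the further Fanconi, homologous repair, excision repair and checkpoint genes were -0.60, -0.46, -0.65 and -0.65, beside -0.51 for all genes. Of the 18 further genes of homologous repair, 10 lay above the median of all genes and 8 below it, so many of them fell without falling more than a typical transcript.

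Among 6 further translesion genes 4 fell and 1 rose, beside 51.4% of all genes lower and 12.4% higher. Their median log2 change was -0.50, beside -0.51 for all genes. Polk, a polymerase that extends past bulky adducts, was 10.5, 12.1 and 11.3 FPKM in control and 16.1, 17.7 and 17.3 FPKM in busulfan, with 16.3, 16.6 and 15.1 FPKM in busulfan plus L.J. and 11.2, 13.9 and 10.3 FPKM in L.J. It rose by 0.55 in busulfan (SE 0.14, limma adjusted p = 0.00718), while Primpol fell by 0.84 and Pcna by 0.57. All 6 libraries of both busulfan groups lay above the other 6.

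Repair by other routes was read in the same way, and its counts stand beside 51.4% of all genes lower and 12.4% higher. Of 15 tested genes of base excision repair 8 fell, led by the glycosylase Tdg (-1.07), the strand-break sensor Parp1 (-1.03) and the glycosylase Nthl1 (-0.99). Of 7 mismatch repair genes 5 fell, including Exo1 (-0.98) and Msh6 (-0.85), and 1 rose. The gene that rose was Pms2, with a change of 0.60 (SE 0.18, limma adjusted p = 0.0136), from 21.2, 20.6 and 18.9 FPKM in control to 28.7, 34.3 and 30.7 FPKM in busulfan, and it is named for that reason after its value was seen. Of 7 genes of end joining 2 fell, Xrcc5 (-0.93), a subunit of the Ku dimer, and Prkdc (-0.47), its kinase partner. The median log2 changes were -0.65 for base excision repair, -0.84 for mismatch repair and -0.47 for end joining, beside -0.51 for all genes.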

How the data were processed

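The authors deposited a table of FPKM with 1 value per gene for each of 12 libraries. Reads had been aligned with Bowtie 0.12.2 to mm10, per the submitters' processing notes. No source used here gives the quantifier, its annotation, any filter or scaling, or the use of strand. The deposited FPKM hold no read counts and their low values are not whole multiples of 1 read, so depth is unknown and no counting interval is given.

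From the deposited values, genes with at least 1 FPKM in at least 3 libraries were kept, which left 14675 and removed 6329. Tests used log2(FPKM + 1), which understates the change of rare genes. All 4 groups entered 1 fit in limma 3.58.1 (R 4.3.3) with trend, not robust, with 8 residual and 3.44 prior degrees of freedom, which takes the spread of all groups as equal. Benjamini-Hochberg adjustment ran over all genes tested in a comparison, with a threshold of 0.05. The fit was tested on simulated data. Positions are from RefSeq on GRCm38, shared exons from GENCODE M21, and plots were made in Python 3.11.15 with matplotlib 3.10.9.

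All 37 genes are reported. From each further repair list, up to 3 genes were named with the largest absolute change among those past the threshold in busulfan against control without overlap, and Rnf168 and Pms2 were added after their values were seen. The genes and lists were chosen with earlier results of these data known. Alternatives were other pseudocounts, filters and scalings, an absolute log2 change of at least 1, a fit of the 2 groups compared, a replicate block, an L.J. group reduced to 1 library, and leaving out each library. A few genes met this rule and are not reported here. Protein sequences are not used here.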

Additional observations from a re-analysis of the deposited data

How the results depend on the processing

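In busulfan against control, the 20 repair genes called became 11 of the 20 genes left by a minimum of 5 FPKM in 3 libraries, 8 under quantile normalization, 5 under median scaling, 1 under meiotic scaling, 8 (all higher) under Sertoli scaling and 2 with an absolute log2 change of at least 1. In busulfan plus L.J. against control, the 22 became 12, 9, 5, 4, 7 (all higher) and 4 in that order. The lower counts with a minimum of 5 FPKM come with fewer genes tested, and those with an absolute log2 change of at least 1 with a stricter threshold. The counts under the scalings depend on how each moves all genes of a library. What else shaped the counts was not tested. Leaving out 1 library gave 17 to 23 and 18 to 25 calls. As deposited, 51.4% of all genes were lower in the former comparison and 53.5% in the latter, and the shares under each scaling are given above. No share is given for the other alternatives, so their counts only describe how the calls depend on the setting. Numbers did not pair the libraries across all groups, as 0 of 12 libraries matched best their own number in every other group. That criterion cannot exclude pairing between particular groups. Of 18 same-numbered pairs, 5 had correlated deviations over 0.1 (r from -0.175 to 0.759). The highest were L.J. with control for replicate 2 (r = 0.759) and replicate 3 (r = 0.62), while replicate 1 of these groups gave r = -0.175. The replicate block gave 21 and 22 calls and 0 in the other 3 comparisons, where every alternative gave 0.

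Signs turned for 15, 16, 9 and 32 of the 35 genes under quantile, median, meiotic and Sertoli scaling in busulfan against control, and for 12, 13, 8 and 30 in busulfan plus L.J. against control. Under quantile and median scaling, the genes that turned and were past the threshold before or after are given here. Under quantile normalization in busulfan against control, log2 changes were 0.019 for Eme1, 0.31 for Brca1, 0.060 for Brca2, 0.51 for Rad51d, 0.57 for Ercc5 and 0.12 for Rev1. In busulfan plus L.J. against control they were 0.11 for Fanci, 0.39 for Brca1, 0.019 for Brca2, 0.32 for Brip1, 0.39 for Ercc5 and 0.14 for Rev1. Under median scaling they were 0.089 for Fancg, 0.044 for Brca2, 0.45 for Rad51d, 0.51 for Ercc5 and 0.13 for Rev1 in the former, and 0.031 for Fancg, 0.030 for Fanci, 0.31 for Brca1 and 0.14 for Rev1 in the latter. Median, meiotic and Sertoli scaling multiply each library by 1 factor, which moves all of its genes together. The Sertoli markers had a median log2 change of -1.49 in busulfan against control as deposited, so scaling to them raises most genes in that comparison. Why the reference genes differed between the groups was not tested. The unknown depth limits all genes near 1 FPKM, such as Fan1 and Mgmt.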
